A study of Bos taurus with 96 samples.

Results

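The muscle transcriptome of Holstein cows of good and of poor genetic merit for fertility, named Fert+ and Fert-, was compared at mid lactation (ML). The 16 libraries are those whose labels give muscle as the tissue and ML as the time-point, 8 from Fert+ cows and 8 from Fert- cows, out of 96 libraries in the series. Every gene of the count files was considered. Fert+ and Fert- cows had been selected for extreme genetic merit for calving interval at a similar merit for milk production, so that genotype here means a difference in many loci at once. The cows were a mixture of primiparous and older animals of a single herd, had different sires and were not bred in the sampled lactation. The same cows gave liver and muscle at late pregnancy (LP), early lactation (EL) and ML, and no group received a treatment. Muscle was taken by biopsy from the semitendinosus of the hind limb through the skin, and each library is 1 biopsy of 1 cow.

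Skeletal muscle is a mixture of slow fibres, which rely on oxidation in mitochondria, and fast fibres, which contract quickly and draw more on glycogen and glycolysis. In the dairy cow muscle is also a store of protein and fat that is drawn on around calving and is refilled later in lactation under the control of insulin, the somatotropic axis and glucocorticoids. A biopsy holds vessels, connective tissue, nerve and fat beside the fibres, and in such bulk samples fewer cells of a type cannot be told apart from less RNA per cell.

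Library totals ran from 15795921 to 19676158 counted read pairs in Fert+ cows and from 16195107 to 22018740 in Fert- cows. Expression is given as CPM (counts scaled to a common library size with TMM factors), without correction for gene length, so levels are compared between cows and not between genes. Fold changes are Fert+ relative to Fert- on a log2 scale with their standard error, means are ± SD over the 8 cows of a genotype, and unadjusted and adjusted p are two-sided values of edgeR's quasi-likelihood test unless another test is named. The label of the tissue matched its markers, since the summed CPM of 15 fast fibre genes lay between 129800 and 203800 in every library. The median correlation of a library with the other 15 was between 0.9775 and 0.9861. Several libraries stood apart in few genes. In a set of 19 genes with a median of at most 2 counts over the libraries of each tissue, cows 164 and 419, both Fert-, had at least 50 counts in 13 and 12 genes, and every other cow in at most 2. Further genes with higher counts elsewhere, such as TPT1 and MYH4, were also far higher in these 2 libraries. The labels name no batch that holds them, and since both are Fert- what sets them apart cannot be told apart from genotype where it moves a gene. The libraries of Fert+ cows 33 and 3445 and of Fert- cows 996, 1000 and 1179 held over 20 CPM of the liver transcript ALB. Values without either set of libraries, or without a single cow, are given beside results that they moved.

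No gene passed an adjusted p of 0.05 among the 12001 genes tested (0% called), and the smallest adjusted p was 0.340. At an unadjusted p under 0.05 the quasi-likelihood test gave 917 genes (7.64%), of which 435 (3.62%) were higher and 482 (4.02%) were lower in Fert+ cows. These 2 shares of all genes stand beside the counts given for gene groups below. They are no like background, since many group members were in the study's lists, which were drawn from this series. Most differences were small. The median log2 fold change over all genes was -0.01, the 10th and 90th percentiles were -0.24 and 0.18, and 51 genes differed by more than 1 on the log2 scale. Among the 772 genes with a known symbol that were in no list of the study, 69 (8.94%) had an unadjusted p under 0.05 by edgeR, 56 higher (7.25%) and 13 lower (1.68%), and their median log2 fold change was 0.04. Symbols were known for 1565 of the genes tested, mainly abundant genes and genes that the study had listed, so that the named genes are no even sample of all genes. The 8 values of each genotype did not overlap for 2 genes (0.0167%), 1 higher and 1 lower (0.00833% each), both without a symbol in the sources used here. ENSBTAG00000012355 was between 49.4 and 52.2 CPM in Fert+ cows and between 41.1 and 48.8 CPM in Fert- cows, a log2 difference of only 0.14 ± 0.05. ENSBTAG00000015101 was between 1.72 and 2.58 CPM in Fert+ cows and between 2.70 and 5.34 CPM in Fert- cows, a log2 fold change of -0.69 ± 0.15. For both genes the exact permutation test gave p = 0.000155, the smallest that 8 against 8 cows allow.

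Other tests called more genes. With 1 common dispersion for all genes, the method of the study, an exact test called 214 genes (1.78%), 62 higher (0.517%) and 152 lower (1.27%) in Fert+ cows. Its smallest adjusted p, 5.32e-165, was that of TPT1, a translationally controlled tumour protein. TPT1 was at 379 and 472 CPM in cows 164 and 419 and at most 4.94 CPM in the 8 Fert+ cows, and its log2 fold change of -4.77 was -0.12 without those 2 cows. DESeq2 called 14 genes (0.117%), 10 higher (0.0833%) and 4 lower (0.0333%), and 10 of the 14 were also called by the exact test.

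**Figure D1:**
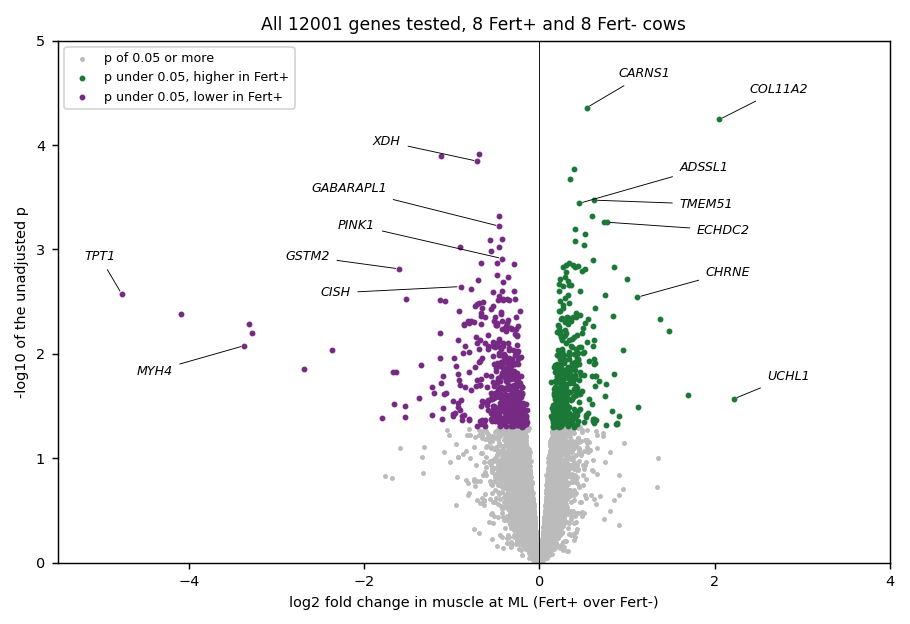
Log2 fold change (Fert+ over Fert-, horizontal axis) against the negative log10 of the unadjusted edgeR p (vertical axis) for the 12001 genes tested in muscle at ML, 1 point per gene. Most points lie close to 0 on the horizontal axis, and TPT1 and MYH4 far to the left carry the values of cows 164 and 419.

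Among the 12 named genes of smallest p that were higher in Fert+ cows, 2 act on small molecules that contracting muscle holds in large amounts. CARNS1, the enzyme that makes the dipeptides carnosine and anserine, was at 38.1, 50.9 and 54.3 CPM (lowest, median and highest) in Fert+ cows and at 23.6, 34.4 and 44.4 CPM in Fert- cows. Of the 8 Fert+ cows 7 exceeded every Fert- cow, and cow 430 was the exception. The means were 49.6 ± 5.11 and 34.2 ± 6.29 CPM, a log2 fold change of 0.54 ± 0.10 with an unadjusted p of 4.39e-05, an adjusted p of 0.340 and an exact permutation p of 0.000466. DESeq2 gave CARNS1 an adjusted p of 0.00723, and without cow 426, the highest of the Fert- cows, edgeR gave 0.0445. The log2 fold change of CARNS1 was 0.44 without the 5 libraries over 20 CPM of ALB. ADSSL1, the muscle form of the enzyme that commits IMP to AMP in the purine nucleotide cycle, was at 188, 211 and 271 CPM in Fert+ cows and at 125, 146 and 204 CPM in Fert- cows. Every Fert+ cow lay above the Fert- median, and 6 of them above all Fert- cows. Its log2 fold change was 0.45 ± 0.11, with an exact permutation p of 0.00124 and an adjusted p of 0.482 by edgeR and of 0.0464 by DESeq2.

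ECHDC2, a mitochondrial protein related to the enoyl-CoA hydratases, was at 20.5, 25.5 and 44.1 CPM in Fert+ cows and at 10.4, 16.1 and 26.7 CPM in Fert- cows. All Fert- cows except 1 were below the whole Fert+ group. The log2 fold change was 0.77 ± 0.18 (exact permutation p = 0.00171, adjusted p = 0.490 by edgeR and 0.0385 by DESeq2), and it was 0.41 without the 5 libraries over 20 CPM of ALB. COL11A2, a fibrillar collagen chain, had the largest difference of these 12 genes but a low level, at 0.931, 2.68 and 5.68 CPM in Fert+ cows against 0.338, 0.603 and 1.85 CPM in Fert- cows. The highest Fert- value was that of cow 164, and the other 7 Fert- cows lay below every Fert+ cow. The log2 fold change was 2.05 ± 0.39, with an exact permutation p of 0.000622 and an adjusted p of 0.340 by edgeR and of 0.000245 by DESeq2. Without cow 164 edgeR gave COL11A2 an adjusted p of 0.0345 and a log2 fold change of 2.43.

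Another 7 of the higher genes differed by 0.39 to 0.85 on the log2 scale. LMOD1, a leiomodin that nucleates actin in smooth muscle, was at 39.7, 52.2 and 65.2 CPM in Fert+ cows and at 33.9, 39.2 and 49.6 CPM in Fert- cows. The genotypes overlapped, although every Fert+ cow exceeded the Fert- median. MLF1 (log2 fold change 0.41), the mitotic kinesin KIF22 (0.44), PLEKHH3 (0.50), AHDC1 (0.61), TMEM51 (0.62) and FAM184A (0.85) were the others described, with adjusted p between 0.482 and 0.490. Over the 12 genes, 10 had every Fert+ cow above the Fert- median. Of the 12, 7 were in the list that the study drew from the same libraries, so that its choice of them is not independent evidence.

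The genes of smallest p that were lower in Fert+ cows included enzymes and regulators of turnover. XDH, the xanthine dehydrogenase that makes uric acid in purine breakdown, was at 25.8, 28.6 and 38.6 CPM in Fert+ cows and at 28.4, 47.6 and 70.8 CPM in Fert- cows. The Fert+ cows were close together apart from cow 430, and 6 Fert- cows lay above all of them. The means were 29.5 ± 4.04 and 48.2 ± 13.9 CPM, a log2 fold change of -0.71 ± 0.15 with an unadjusted p of 0.000143, an adjusted p of 0.340 and an exact permutation p of 0.00202. DESeq2 gave XDH an adjusted p of 0.0159, and without cow 426, the lowest of the Fert- cows, edgeR gave 0.0445.

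PINK1, the kinase that marks damaged mitochondria for removal, was at 332, 378 and 560 CPM in Fert+ cows and at 448, 571 and 694 CPM in Fert- cows. GABARAPL1, which is conjugated to autophagosome membranes, was at 17.6, 22.3 and 29.4 CPM against 22.5, 31.5 and 41.9 CPM. For both genes no Fert+ cow reached the Fert- median. The log2 fold changes were -0.42 ± 0.11 for PINK1 and -0.46 ± 0.11 for GABARAPL1, with exact permutation p of 0.00451 and 0.00326 and an adjusted p of 0.490 each. CISH, a feedback inhibitor of cytokine and growth hormone signalling through STAT5, was at 25.7, 39.5 and 76.0 CPM in Fert+ cows and at 51.2, 74.7 and 139 CPM in Fert- cows. Of the Fert+ cows 6 were below every Fert- cow, while 1 was above the Fert- median. The log2 fold change was -0.90 ± 0.25 (exact permutation p = 0.00295, adjusted p = 0.490 by edgeR and 0.0494 by DESeq2).

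GSTM2, a glutathione transferase, was at 1.03, 1.84 and 2.62 CPM in Fert+ cows and at 1.31, 4.11 and 12.9 CPM in Fert- cows, and 7 of the 8 Fert- cows exceeded every Fert+ cow. Its log2 fold change of -1.60 ± 0.42 (adjusted p = 0.490) was -0.85 without cows 164 and 419, which had the 2 highest values. Reads of GSTM2 can match other members of its family, so its counts depend on how such reads were placed. The other lower genes were the interferon-induced OAS1Y (-0.56), MGC165715 (-0.56, and -0.31 without the 5 libraries over 20 CPM of ALB), the calcium-dependent membrane binder CPNE2 (-0.67), DKFZP564O0823 (-0.71), the complement inhibitor CFI (-1.14), the class II chain HLA-DQB2 (-1.52) and TPT1, described above. Below the Fert- median lay every Fert+ cow in 8 of these 12 genes, and 9 of the 12 were in the study's own list.

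**Figure D2:**
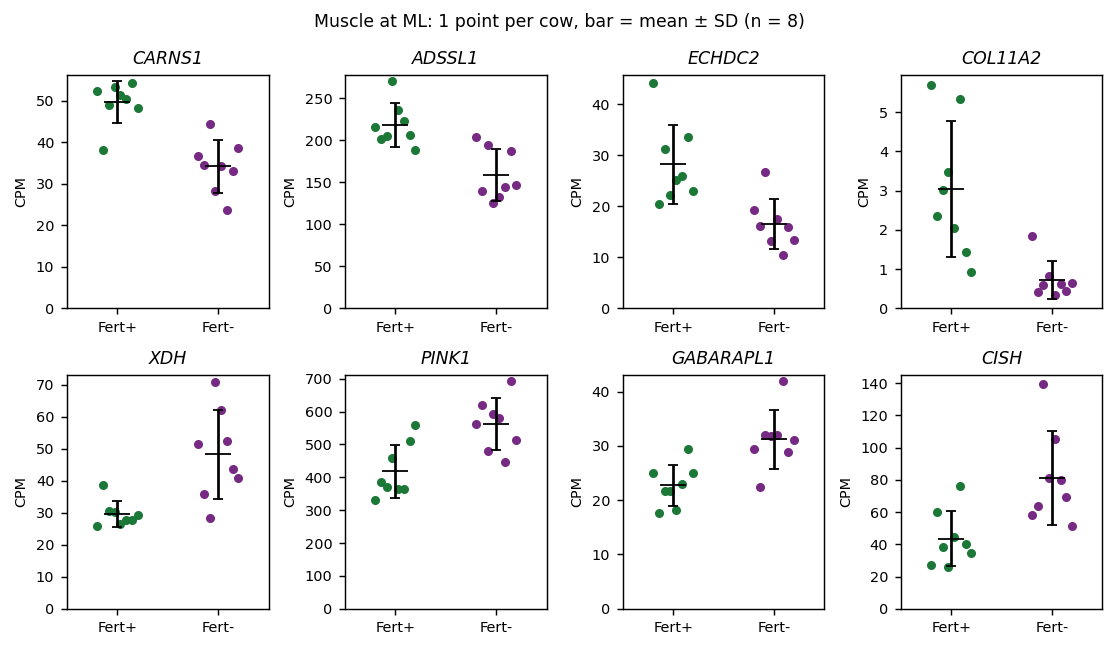
CPM of the genes of smallest p in muscle at ML, with 1 panel per gene, 1 point per cow and a bar for the mean with its SD (n = 8 per genotype). The genotypes overlap in every panel, by a single Fert+ cow for CARNS1 and by more cows for PINK1 and CISH.

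Genes of the fast fibre programme were higher in Fert+ cows by value. Of 14 fast fibre genes tested, 13 had a positive log2 fold change, 5 were higher and 1 lower at an unadjusted p under 0.05, and their median was 0.23, beside -0.01 over all genes and 47.4% of all genes higher. The 5 were subunits of the fast contractile apparatus and its calcium store. TNNC2, the calcium-binding fast troponin, was at 5730, 7224 and 8335 CPM in Fert+ cows and at 4942, 6146 and 6687 CPM in Fert- cows, and 6 Fert+ cows exceeded every Fert- cow. Its log2 fold change was 0.26 ± 0.10, with an exact permutation p of 0.0152 and an adjusted p of 0.541. TNNT3 (0.29) and TNNI2 (0.30), the partners of TNNC2, the regulatory light chain MYLPF (0.26) and the calcium store protein CASQ1 (0.31) differed by a similar amount, with adjusted p between 0.541 and 0.635. The fast heavy chain MYH1 was at 41774, 65834 and 93251 CPM in Fert+ cows and at 53181, 61800 and 77598 CPM in Fert- cows, a log2 fold change of 0.07 ± 0.14, so that the genotypes overlapped widely. MYH2 stood at 0.27 ± 0.17 (adjusted p = 0.734), and at 0.09 without cow 3445, which had its highest value.

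The single lower fast gene, MYH4, was at 10.4, 12.8 and 46.1 CPM in Fert+ cows and at 13.3, 14.3 and 691 CPM in Fert- cows. It was high in cows 164 and 419 only, and its log2 fold change of -3.37 became 0.33 without them. The heavy chain genes are near-identical neighbours, and their reads may be assigned to more than 1 of them. The number of fast genes higher at an unadjusted p under 0.05 was 3 when any of cows 33, 426, 756, 782, 829, 982, 996 or 3434 was left out and at most 7, without cow 164, while the median stayed between 0.19 and 0.27 in all 16 fits that left out 1 cow. Without the 5 libraries over 20 CPM of ALB, 1 fast gene was higher at that limit.

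Slow fibre genes were mostly lower by value. Of 15 slow fibre identifiers 4 were higher and 11 lower by value, their median was -0.12, and 1 was lower at an unadjusted p under 0.05. The median was -0.01 without the 5 libraries over 20 CPM of ALB and between -0.15 and -0.04, the latter without cow 982, when 1 cow was left out. The abundant identifier of MYH7, the slow heavy chain, was at 10836, 14955 and 18137 CPM in Fert+ cows and at 11137, 16266 and 20651 CPM in Fert- cows (-0.12 ± 0.14, adjusted p = 0.873). The lower one was another identifier of MYH7 with few counts, at 86.4, 119 and 288 CPM against 84.7, 249 and 729 CPM, a log2 fold change of -1.35 ± 0.48 that was -0.73 without cows 164 and 419. The 13 genes of the mitochondrial genome, which encode subunits of the respiratory chain, held none at an unadjusted p under 0.05 and had a median of -0.08, which was -0.13 without the 5 libraries over 20 CPM of ALB and -0.15 without cow 3847, where 3 were lower at that limit. COX1, the catalytic subunit of cytochrome oxidase, was at 48706, 63115 and 70258 CPM in Fert+ cows and at 46733, 58515 and 73806 CPM in Fert- cows (0.03 ± 0.11).

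Glycolysis and glycogen genes stood beside the fast fibre genes. Of 17 genes 14 had a positive log2 fold change, 4 were higher and none lower at an unadjusted p under 0.05, and the median was 0.18. Without cow 33, 1 gene was lower at that limit. PFKFB3 was among the 3 genes lower by value, at 20.5 to 420 CPM in Fert+ cows and 87.1 to 1097 CPM in Fert- cows. TPI1, the triosephosphate isomerase, was at 1686, 2119 and 2744 CPM in Fert+ cows and at 1400, 1839 and 2395 CPM in Fert- cows, a log2 fold change of 0.31 ± 0.12 (exact permutation p = 0.0309, adjusted p = 0.561). The muscle phosphoglycerate mutase PGAM2 (0.33) and the pyruvate kinase PKM2 (0.27) were close to it. EPM2A, the phosphatase laforin that acts on glycogen, was at 37.6, 64.1 and 83.1 CPM in Fert+ cows and at 19.8, 41.8 and 57.3 CPM in Fert- cows (0.56 ± 0.20, adjusted p = 0.541). Aldolase ALDOA (0.18), the glycogen phosphorylase PYGM (0.20) and the muscle enolase ENO3 (0.20) had unadjusted p of 0.122, 0.0504 and 0.0814. The count higher at that limit was 2 when any of cows 782, 829 or 3397 was left out, 7 without cow 164, 8 without cow 3445 or cow 3847, and 8 without cows 164 and 419 together, while the median stayed between 0.14 and 0.22 when any 1 cow was left out. Only 2 of the 17 genes were in the study's list, and 9 of them were in no list of the study. Those 9 had a median of 0.16, 8 of them were positive and 1 had an unadjusted p under 0.05.

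**Figure D3:**
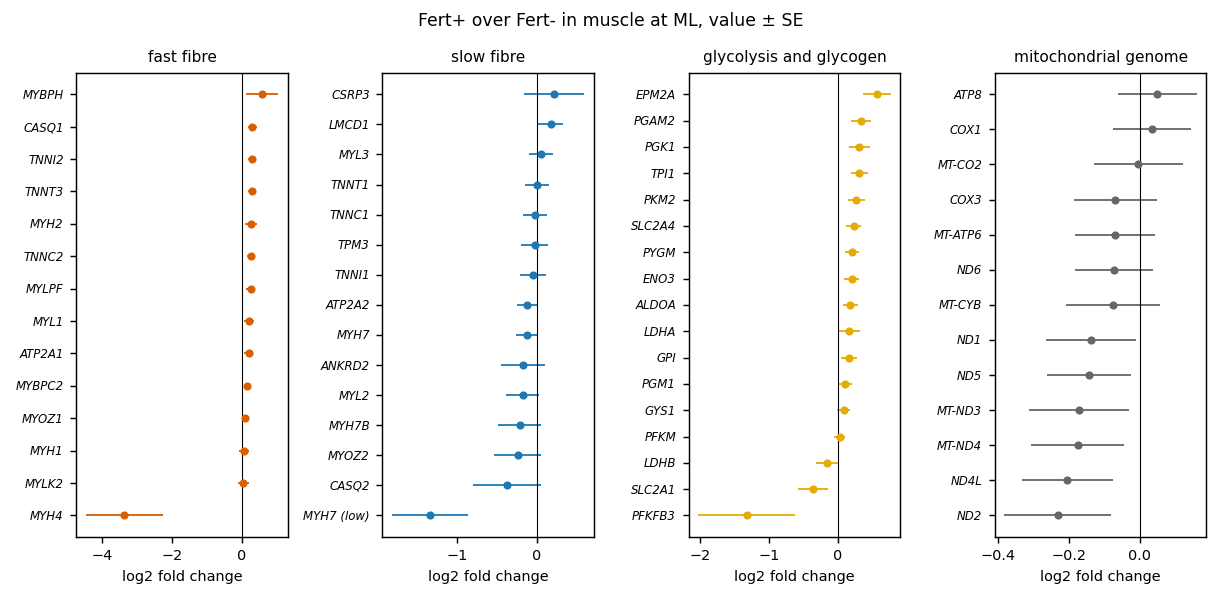
Log2 fold change of each tested gene of the fast fibre, slow fibre, glycolysis and mitochondrial genome lists in muscle at ML, 1 point per gene with its SE. Fast fibre and glycolysis genes lie mostly to the right of 0 (medians 0.23 and 0.18) and slow fibre and mitochondrial genes mostly to its left (medians -0.12 and -0.08), with MYH4 and the low-count MYH7 identifier farthest out.

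Genes of fat handling were examined as 3 groups. Of 15 genes of fatty acid uptake and oxidation, 2 were higher and none lower at an unadjusted p under 0.05 around a median of -0.01. ACOT7, which hydrolyses acyl-CoA, was higher by 0.63 ± 0.21 (adjusted p = 0.521), and ECHDC2 was the other. None of 8 cholesterol synthesis genes had an unadjusted p under 0.05, and their median was -0.05. The 10 adipocyte and lipid storage genes tested had a median of -0.37, 9 of them were negative and 1 was lower at that limit, which was DGAT2, the enzyme that completes triglyceride synthesis. DGAT2 was at 24.2, 31.4 and 38.7 CPM in Fert+ cows and at 30.4, 37.4 and 63.4 CPM in Fert- cows, a log2 fold change of -0.49 ± 0.16 (exact permutation p = 0.0180, adjusted p = 0.490). FABP4, the fatty acid carrier of fat cells, had a log2 fold change of -0.83 ± 0.45 (adjusted p = 0.695; -0.45 without cow 982) and overlapped widely between genotypes. The summed level of the list was 1111 to 1633 CPM in Fert+ cows and 963.8 to 1897 CPM in Fert- cows. The number of lower genes was 3 without cow 164, without cow 426 and without the 5 libraries over 20 CPM of ALB, the median was -0.23 without cow 982, and 5 of the 10 genes came from the study's list.

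Amino acid and creatine genes had values in both directions. Among 13 tested, 2 were higher and 2 lower at an unadjusted p under 0.05 with a median of -0.14, which ran from -0.31 without cow 3397 to 0.05 without cow 1000 in the fits that left out 1 cow and was 0.14 without the 5 libraries over 20 CPM of ALB. Beside CARNS1, GAMT, the last step of creatine synthesis, was higher by 0.34 ± 0.15 (adjusted p = 0.631). GLUL, the glutamine synthetase, was at 191, 289 and 320 CPM in Fert+ cows and at 306, 357 and 909 CPM in Fert- cows. No Fert+ cow reached the Fert- median, 6 were below all Fert- cows, and cow 996 stood far above the others. The log2 fold change of GLUL was -0.66 ± 0.21 (exact permutation p = 0.00155, adjusted p = 0.490), and it was -0.41 without cow 996 and -0.35 without the 5 libraries. PHGDH, the first step of serine synthesis, was lower by value (-1.12 ± 0.44, adjusted p = 0.552) at a median of 0.730 CPM in Fert+ cows and 1.54 CPM in Fert- cows. Its log2 fold change was -0.53 without cows 164 and 419.

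Of 20 glutathione and antioxidant genes, 1 was higher and 3 were lower at an unadjusted p under 0.05, and the median was -0.03 (-0.10 without the 5 libraries over 20 CPM of ALB). Catalase, CAT, which destroys hydrogen peroxide, was at 162, 178 and 222 CPM in Fert+ cows and at 197, 217 and 248 CPM in Fert- cows. Of the Fert+ cows 6 lay below all Fert- cows. The log2 fold change was -0.25 ± 0.08 (exact permutation p = 0.00606, adjusted p = 0.490). The secreted glutathione peroxidase GPX3 was lower by 0.43 on the log2 scale (adjusted p = 0.541) and the glutaredoxin GLRX higher by 0.52 (adjusted p = 0.490). GSTT1 was between 0.0636 and 10.8 CPM in Fert+ cows and between 6.04 and 11.3 CPM in Fert- cows, and GSTM3 between 22.3 and 115 CPM and between 59.8 and 117 CPM. In both transferases some Fert+ cows lay far below the whole Fert- group, and the adjusted p were 0.713 and 0.747.

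Targets of glucocorticoids were mostly lower in Fert+ cows by value. Of 8 tested, 6 were lower and 2 higher by value, and at an unadjusted p under 0.05, 3 were lower and none was higher. The median was -0.39, and it was -0.23 without the 5 libraries over 20 CPM of ALB. It was -0.20 without cow 996, the cow with the highest sum of these genes (1611 CPM against a Fert- median of 819.2 CPM). GLUL, FKBP5 and HIF3A were the 3 lower at that limit, and none of the 8 genes was outside every list of the study. FKBP5, a chaperone of the glucocorticoid receptor that the hormone induces, was at 101, 123 and 186 CPM in Fert+ cows and at 100, 153 and 334 CPM in Fert- cows (-0.44 ± 0.20, adjusted p = 0.635), and -0.28 without the 5 libraries and -0.24 without cow 996. HIF3A, which binds the partners of the hypoxia factors, had a log2 fold change of -0.98 ± 0.35 (adjusted p = 0.541). The 10 FOXO and atrophy genes had 9 negative values and a median of -0.37, with 1 higher and 1 lower at that limit by edgeR, and the median was -0.03, with none at that limit, without the 5 libraries over 20 CPM of ALB and -0.16 without cow 996. The higher one was MSTN, myostatin, the secreted brake on muscle growth, at 11.2, 17.2 and 38.3 CPM in Fert+ cows and 3.84, 11.4 and 21.7 CPM in Fert- cows (0.75 ± 0.30, adjusted p = 0.581, exact permutation p = 0.0222), and 0.34 without those 5 libraries. The lower one was EIF4EBP1, the translation repressor that insulin signalling switches off (-0.43 ± 0.18, adjusted p = 0.577). PDK4, which closes pyruvate dehydrogenase in fasting, was between 221 and 720 CPM in Fert+ cows and between 263 and 1775 CPM in Fert- cows (-0.47 ± 0.41), and its log2 fold change was -0.01 without those 5 libraries.

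All 5 somatotropic axis genes tested were negative, with a median of -0.32, and CISH was the 1 at an unadjusted p under 0.05. SOCS2, another STAT5 target that limits growth hormone signalling, was at 6.28, 10.2 and 16.1 CPM in Fert+ cows and at 5.60, 15.6 and 25.4 CPM in Fert- cows (-0.57 ± 0.29, adjusted p = 0.674). The count of lower genes was 3 without cow 426 or cow 1000, and the median ran from -0.53 without cow 3434 to -0.17 without cow 829. Without the 5 libraries over 20 CPM of ALB 3 were lower and the median was -0.73. The 14 immediate early and heat shock genes, which respond to handling of tissue, had a median of 0.09 and 1 gene lower at that limit, the growth-arrest gene BTG1 (-0.49 ± 0.18). Their median ran from -0.21 without cow 33 to 0.30 without cow 829, and it was 0.01 without the 5 libraries over 20 CPM of ALB. Of 5 genes of the PGC-1 axis the single lower one was NAMPT, which makes NAD precursors (-0.51 ± 0.22, adjusted p = 0.627), and its value was -0.30 without the 5 libraries over 20 CPM of ALB and -0.26 without cow 996, 1 of 9 cows without which no gene of the axis was left at that limit.

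Endothelial genes were mostly lower in Fert+ cows by value. Of 7 tested, 5 were lower and 2, TEK and CLDN5, were higher by value, with a median of -0.74. At an unadjusted p under 0.05, 3 were lower, beside 4.02% of all genes, and none was higher. VWF, the von Willebrand factor of vessel lining, was at 39.1, 53.8 and 104 CPM in Fert+ cows and at 61.1, 87.8 and 181 CPM in Fert- cows, and 5 Fert+ cows lay below all Fert- cows (-0.74 ± 0.26, exact permutation p = 0.0197, adjusted p = 0.541). EDN1, the vasoconstrictor endothelin, was lower by 0.86 (adjusted p = 0.490) and the chemokine-binding DARC by 0.98 (adjusted p = 0.635, and -0.41 without cow 829). The median of the 7 was -0.41 without cow 829. Of the 7, 4 came from the study's list for muscle at ML, and none was outside every list of the study. Summed endothelial CPM ran from 87.9 to 151 in Fert+ cows and from 115.6 to 245 in Fert- cows. Whether the biopsies differed in their content of vessels was not tested. Of 9 fibroblast and matrix genes 2 were lower, the short-chain collagen COL8A1 (-0.87, and -0.56 without cow 996) and PI16 (-0.71), around a median of -0.20, and between 1 and 3 were lower when 1 cow was left out. Among 4 smooth muscle genes LMOD1 was the 1 higher, and their median was 0.08 (0.02 without the 5 libraries over 20 CPM of ALB).

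Genes of the interferon response were lower, all 6 by value and 3 at an unadjusted p under 0.05 (4.02% of all genes), with a median of -0.55. IDO1, which degrades tryptophan, was at 1.09, 2.48 and 8.04 CPM in Fert+ cows and at 2.48, 6.02 and 14.1 CPM in Fert- cows (-1.20 ± 0.48, exact permutation p = 0.0345, adjusted p = 0.577). IFI27 had a log2 fold change of -0.62 ± 0.29, which was -0.94 without cow 430, and OAS1Y was given above. The count was 1 without cow 829, without cow 1000 and without the 5 libraries over 20 CPM of ALB, and 4 without cow 430. The median stayed between -0.78 and -0.47 when any 1 cow was left out. Of the 6 genes, 3 came from the study's list for muscle at ML, and none was outside every list of the study. Of 13 complement genes 12 were negative (median -0.34), and 2 were lower at that limit, among them CFI. The count was 7 without cow 33, between 1 and 3 without any other cow, and 6 without the 5 libraries over 20 CPM of ALB. The single leukocyte marker tested, CD8B, was higher by 0.95 ± 0.33 (adjusted p = 0.538) at a median of 0.713 CPM against 0.388 CPM. Its log2 fold change was 0.47, no longer at an unadjusted p under 0.05, without the 5 libraries over 20 CPM of ALB. No neutrophil or erythroid marker had counts enough to be tested. LTF, lactoferrin of neutrophil granules, was below that filter too, and without a filter on low counts it had a log2 fold change of -1.44 ± 0.36 (exact permutation p = 0.000932, adjusted p = 0.549) at a median of 0.173 CPM in Fert+ cows and 0.505 CPM in Fert- cows. S100A8, of the same cells, was at 0 to 0.166 CPM in Fert+ cows and at 0 to 1.03 CPM in Fert- cows. The highest value was that of cow 829, and the next Fert- value was 0.205 CPM. S100A9 and S100A12 were also highest in cow 829, at 1.13 and 2.89 CPM, and reached 0.662 and 1.88 CPM in Fert+ cow 33.

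Several histocompatibility identifiers, among them those of the DQ alpha chains, had cows near 0 beside cows with far higher counts. BOLA-DQA1, a class II alpha chain that presents antigen, was at 0.768, 24.6 and 61.7 CPM in Fert+ cows and at 0.187, 0.997 and 49.5 CPM in Fert- cows. BOLA-DQA2 was at 0, 1.52 and 3.95 CPM against 0, 4.86 and 7.17 CPM, and BOLA-DQA5 at 0, 0.533 and 1.59 CPM against 0, 1.82 and 3.19 CPM. A count of 0 allows up to 3 counts, or 0.146 to 0.191 CPM depending on the library. The log2 fold changes were 1.35 ± 0.98, -1.35 ± 0.76 and -1.66 ± 0.69, with adjusted p of 0.775, 0.713 and 0.610. That of BOLA-DQA1 was 0.84 without the 5 libraries over 20 CPM of ALB and 2.28 without cow 982. The 8 class II genes as a group had a median of -0.11 with 2 lower, and -0.21 with 1 lower without the 5 libraries. The 6 class I genes had a median of -0.19 with 1 lower, BOLA-NC (-0.89 ± 0.37, and -0.57 without cow 419), and none lower without the 5 libraries. Of 2 class I identifiers named BOLA, ENSBTAG00000022590 was at 3.45, 5.22 and 70.1 CPM in Fert+ cows and at 5.44, 69.5 and 135 CPM in Fert- cows (-1.59 ± 0.84, and -0.92 without the 5 libraries), and ENSBTAG00000002069 differed by -0.13 ± 0.27. JSP.1 was at 0.38 ± 0.58, at -0.17 without the 5 libraries and at 1.10 without cows 164 and 419. These loci are polymorphic and have close copies, so that counts per identifier depend on each cow's alleles and on where ambiguous reads were placed.

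The list of myogenic factors also holds the muscle proteins CKM and DES and the growth brake MSTN, so its members do not act in 1 direction. All 8 of its genes tested were positive, with a median of 0.28 and 3 higher at an unadjusted p under 0.05. Without the 5 libraries over 20 CPM of ALB the median was 0.18 and 1 was higher at that limit, and without cow 33 they were 0.19 and 2. Beside MSTN these were the transcriptional coactivators MKL1 (0.55 ± 0.17, adjusted p = 0.490) and MAMSTR (0.53 ± 0.24, adjusted p = 0.634, and 0.30 without the 5 libraries), which act with SRF and MEF2. CHRNE, the adult subunit of the acetylcholine receptor at the neuromuscular junction, was at 8.89, 11.96 and 30.1 CPM in Fert+ cows and at 4.19, 6.78 and 13.0 CPM in Fert- cows. Every Fert+ cow exceeded the Fert- median, and 5 Fert- cows were below all Fert+ cows. Its log2 fold change was 1.12 ± 0.32 (exact permutation p = 0.00342, adjusted p = 0.490). Of 3 junction genes tested CHRNE was the 1 higher, and the other 2 were lower by value. The median of the 3 was -0.24, -0.86 without the 5 libraries over 20 CPM of ALB and 0.23 without cow 164. UCHL1, a ubiquitin hydrolase of neurons, was higher by 2.22 ± 0.90, and by 0.67 without cow 430, in which it reached 167 CPM. Of 4 nerve and Schwann cell genes tested, 3 were higher and 1 lower by value, and 1 was higher at an unadjusted p under 0.05. Their median was 0.46, -0.01 without cow 33 and 0.01 without the 5 libraries over 20 CPM of ALB. Of 3 skin and hair genes tested the pigment enzyme TYRP1 was higher (0.62 ± 0.23, adjusted p = 0.541), and the summed level of 7 such genes was 3.22 to 19.7 CPM in Fert+ cows and 2.99 to 6.43 CPM in Fert- cows. The hair keratin KRT75 was above 0 in 3 Fert+ and 2 Fert- cows, up to 7.99 CPM. Whether skin in the biopsies had a part in any difference was not tested.

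Transcripts made in the liver were present at low level in some muscle libraries. ALB, serum albumin, was at 99.3 and 37.7 CPM in Fert+ cows 33 and 3445 and at 96.9, 46.7 and 46.6 CPM in Fert- cows 1179, 1000 and 996. The other Fert+ cows were between 1.005 and 7.41 CPM and the other Fert- cows between 0.113 and 11.8 CPM. These levels were 0.000116% to 0.0921% of the ALB level in the liver of the same cow at ML. The fibrinogen chains FGA, FGB and FGG, which form the clot, and AGP, the acid glycoprotein of the acute phase, were high in the same libraries. FGA reached 27.0 CPM in cow 996 and 7.23 CPM in cow 33, at a median of 0.374 CPM over the Fert+ and 1.09 CPM over the Fert- cows. The log2 fold changes were -1.77 ± 1.16 for FGA, -1.33 ± 0.85 for FGB, -1.69 ± 1.12 for FGG, -0.75 ± 1.03 for AGP and -0.41 ± 1.15 for ALB, with adjusted p from 0.741 to 0.952. Without the 5 libraries FGB was at -0.31, FGG at 0.55 and ALB at -0.25, while FGA and AGP had too few counts to be tested. Without cow 996 alone FGA was at -0.53 and AGP at -0.31, and without cow 33 alone at -2.81 and -1.75.

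The proportions among these transcripts in a muscle library were set beside those in the liver of the same cow. In cow 996 the muscle level of FGA was 57.8% of that of ALB, and it was 55.4% in the liver. In cow 33 the same values were 7.28% and 9.39%. HP, haptoglobin, the main acute phase protein of cattle, was at 24.1 CPM (472 counts) in the muscle of cow 996 and at or below 0.645 CPM in the other 15 cows. HP was at 51.8% of ALB in the muscle of cow 996 and at 37.2% in its liver, while the median over the 16 livers was 0.533%. SAA1, serum amyloid A, was at 4.25 CPM in the muscle of cow 996, 9.10% of ALB there and 4.89% in its liver. HP, SAA1, FGB, AGP and APOH were at a higher percent of ALB in muscle than in liver in all 5 cows. FGA, FGG, TF and C9 were higher in muscle by this measure in some of the 5 cows only. In cow 33 HP was at 0.389% (7 counts) against 0.0240%, and AGP at 7.78% against 1.85%. HP and SAA1 were below the filter on low counts. Without a filter HP had a log2 fold change of -3.85 ± 1.35 (exact permutation p = 0.250, adjusted p = 0.585), which rests on cow 996, and SAA1 of -1.79 ± 1.16. How these transcripts came to be in the muscle libraries was not tested.

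As a list, 10 of 37 hepatocyte genes had counts enough to be tested, and all 10 were negative with a median of -0.81. CFI, the gluconeogenic FBP1 (-0.92) and the apolipoprotein APOA1 (-0.62, and -1.09 without the 5 libraries) were the 3 at an unadjusted p under 0.05, and 6 of the 10 came from the study's list. The median was -0.41 without cow 996, -0.52 without cow 782, -1.77 without cow 33 and -0.47 without the 5 libraries, and the count of lower genes was 1 without any of cows 430, 756, 782, 829 or 982 and 6 without cow 33. APOA1 and FBP1 were not highest where ALB was. APOA1 was highest in cows 829 and 419 (2.303 and 2.041 CPM), which held 1.127 and 0.5233 CPM of ALB. FBP1 was highest in cows 982 and 829, with 0.1127 and 1.127 CPM of ALB. Among Fert+ cows both genes were highest in cows 33 and 3445, which were over 20 CPM of ALB. CFI was highest in cows 1179 and 996, also over that limit. The summed level of the 37 genes was 8.54, 15.9 and 246.4 CPM in Fert+ cows and 9.11, 34.0 and 266 CPM in Fert- cows, so that the genotypes overlapped over the whole range. ITIH4, the inter-alpha-trypsin inhibitor chain, was the 1 of 5 acute phase genes tested at that limit (-0.55 ± 0.17, adjusted p = 0.490), at 5.24, 6.28 and 8.52 CPM against 6.04, 8.36 and 15.4 CPM. APOH and APOA5, apolipoproteins of the study's list, were below the filter at up to 5.04 and 0.821 CPM.

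**Figure D4:**
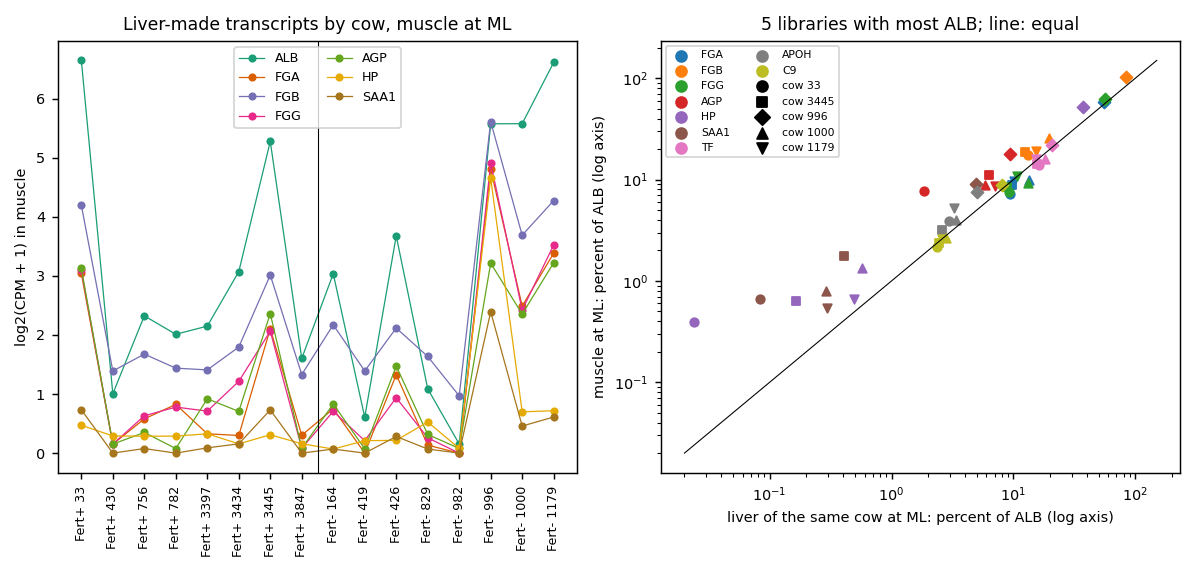
Left, log2(CPM + 1) of ALB, FGA, FGB, FGG, AGP, HP and SAA1 in each of the 16 muscle libraries at ML, 1 colour per gene, with lines only to join the points of a gene. Right, the level of these genes and of TF, APOH and C9 as a percent of ALB in the muscle of the 5 cows with over 20 CPM of ALB (vertical) against the liver of the same cow (horizontal), both on log axes with the line of equality, where HP of cow 996 lies at 51.8% against 37.2%.

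The same cows gave muscle at LP and EL, and fits of their own set the ML values beside those time-points. At LP no gene of 11954 passed an adjusted p of 0.05 (0%), and 800 (6.69%) had an unadjusted p under 0.05. At EL 1 of 12035 genes passed (0.00831%), LMOD1, with a log2 fold change of 1.29 and an adjusted p of 0.0237 by edgeR, and 1426 genes (11.8%) had an unadjusted p under 0.05. LMOD1 had log2 fold changes of 0.48 at LP and 0.39 at ML. Some genes had values of the same sign throughout, such as CHRNE with 1.06 at LP, 1.51 at EL and 1.12 at ML, GSTM2 with -1.80, -1.41 and -1.60, and ECHDC2 with 0.58, 1.32 and 0.77. CARNS1 was at 0.34, -0.02 and 0.54, and XDH at -0.33, -0.02 and -0.71. For CISH the value was -0.35 in LP, 0.995 in EL and -0.90 in ML. The fast fibre genes had medians of 0.12 (LP), 0.82 (EL) and 0.23 (ML), and the glycolysis genes of 0.11, 0.71 and 0.18. At EL 10 of 14 fast fibre and 8 of 17 glycolysis genes were higher at an unadjusted p under 0.05. The median of the slow fibre genes was -0.08, 0.39 and -0.12, and that of the glucocorticoid targets was -0.17, 0.32 and -0.39.

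Whether the genotype difference at ML differed from that at another time-point was tested over the 48 muscle libraries. No gene of 12675 passed an adjusted p of 0.05 for ML against LP (0%, with 350 or 2.76% at an unadjusted p under 0.05) or for ML against EL (0%, with 873 or 6.89%), where the smallest adjusted p was 0.0804. With each cow as a block the counts were again 0, and the numbers at an unadjusted p under 0.05 were 492 and 1122 by edgeR. Among the genes named here the smallest unadjusted edgeR p for ML against EL were those of EDN1 (0.000148), LMOD1 (0.000471), CISH (0.00324) and XDH (0.00579). EDN1 had log2 fold changes of 0.09 at LP, 0.52 at EL and -0.86 at ML.

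**Figure D5:**
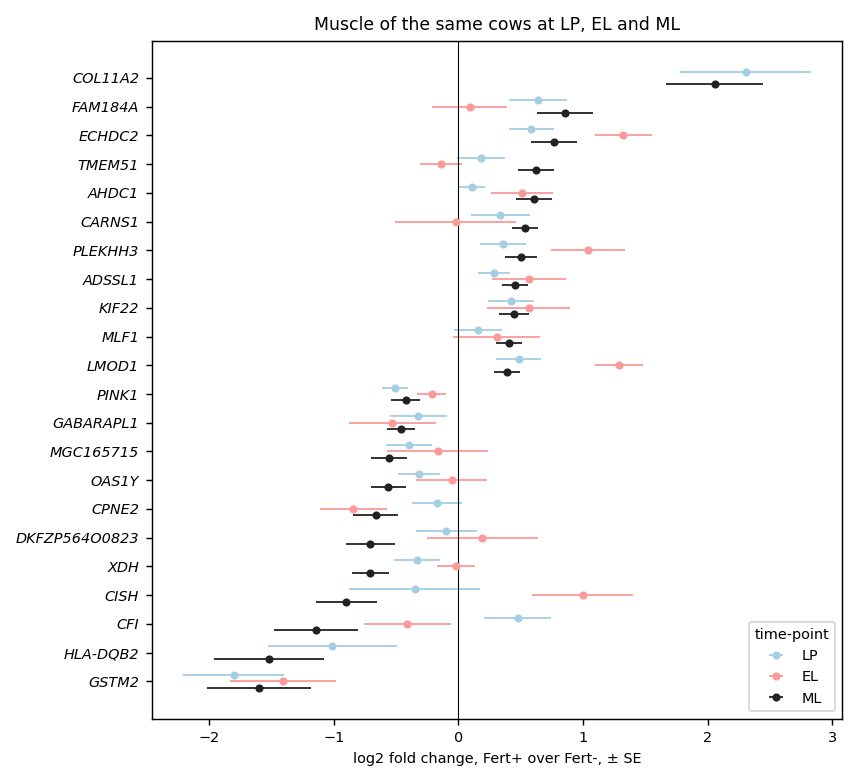
Log2 fold change (Fert+ over Fert-) with its SE for the genes of smallest p at ML described in the text other than TPT1, as fitted at LP, EL and ML in muscle of the same cows. COL11A2 and HLA-DQB2 have no EL value. The ML values chose these genes, and at EL CISH lies on the other side of 0 (0.995) and LMOD1 farther from it (1.29) than at ML.

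The other 67 named genes tested were chosen as the most abundant members of their list or as genes the study discusses, and some had low levels. Their log2 fold changes ran from -0.45 to 1.35, and their smallest unadjusted p by edgeR was 0.0705.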

How the data were processed

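Counts of read pairs per gene were deposited by the authors for each library without normalization. Per the labels and the study's methods, reads were aligned with STAR to the UMD3.1 genome and counted with featureCounts on Ensembl genes. Whether counting used strand is not given in the sources used here, so antisense partners cannot be told apart. Another 96 count columns of whole-series tables carry no sample names and were not used, and the authors' comparison columns in supplements were not used.

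Libraries were grouped by the labels. Genes kept by filterByExpr (12001 of 24616) were tested with edgeR 4.0.16 (TMM factors, robust quasi-likelihood test, two-sided, Benjamini-Hochberg adjustment) under R 4.3.3 with limma 3.58.1. Alternatives were DESeq2 1.42.0, edgeR's exact test with 1 common dispersion, limma-trend, RLE factors, no filter, no robust estimation, a term for the libraries of cows 164 and 419, fits without them, 48 libraries in 1 fit and leaving out each cow. Leaving out libraries over 20 CPM of ALB was chosen after seeing the data. The fits were tested on simulated data. Exact permutation tests ran over all 12870 splits of the cows on log2(CPM + 1) with Python 3.11.15 and scipy 1.17.1. Floors of 3 counts cover counting error only. The authors' lists, drawn from these libraries, and their sheets gave symbols for 2161 identifiers. Positions and sequences were not used here.

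Named genes are the 12 of smallest p in each direction with a symbol, list members with an unadjusted p under 0.05 or among the 4 most abundant, and genes the study's text discusses for muscle. Values of 2 genes under this rule are not reported here, though counts include them. Members and lists were chosen with earlier results of these data known. Libraries of the same cow at ML and at LP or EL deviated together from their group means in 28 of 32 pairs (correlation over 0.1, lowest 0.0508, median 0.231), and the cow was used as a block in an alternative of the time-point tests. In all 56 pairs of cows within a genotype the counts differed beyond sampling noise (lowest chi-square per gene 19.4). Each library is a separate cow.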

Additional observations from a re-analysis of the deposited data

Results flagged for a closer look

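In 16 of 146 groups of 8 cows examined (genes and summed lists, by genotype), the highest or lowest cow stood apart by a gap to the nearest cow that passed Dixon's 95% limit, and about 5% of such groups do so by chance.

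CARNS1 was at 38.07 CPM in Fert+ cow 430, below a Fert+ median of 50.93 CPM. COL11A2 was at 1.849 CPM in Fert- cow 164, above a Fert- median of 0.6031 CPM. XDH was at 38.63 CPM in Fert+ cow 430, above a Fert+ median of 28.56 CPM. GSTT1 was at 11.25 CPM in Fert- cow 426, above a Fert- median of 6.954 CPM. BOLA-DQA1 was at 0.7685 CPM in Fert+ cow 756, against a Fert+ median of 24.57 CPM. BOLA-DQA2 was at 0.0 CPM in Fert- cow 982, where 3 counts would be 0.169 CPM, against a Fert- median of 4.858 CPM.

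Cow 996 of the Fert- group stood apart in several genes and sums. HP was at 24.14 CPM there (Fert- median 0.3013 CPM), SAA1 at 4.245 CPM (0.1322 CPM) and GLUL at 909.1 CPM (356.5 CPM). Its summed glucocorticoid targets reached 1611 CPM (819.2 CPM) and its summed amino acid and creatine genes 1380 CPM (696.8 CPM), while its summed adipocyte and lipid storage genes were lowest at 963.8 CPM (1491 CPM).

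The summed adipocyte and lipid storage genes were also lowest in Fert+ cow 430, at 1111 CPM against a Fert+ median of 1435 CPM, and its summed interferon response genes were highest at 31.99 CPM against 14.37 CPM. Summed neutrophil genes were highest in Fert+ cow 33 (3.035 CPM, median 0.705 CPM) and in Fert- cow 829 (5.439 CPM, median 1.098 CPM).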

How the results depend on the processing

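The count of 0 genes at an adjusted p of 0.05 was 0 with RLE factors, without a gene filter, without robust estimation, with a term for the libraries of cows 164 and 419, without these 2 libraries, with limma-trend, in the fit of 48 libraries and without the 5 libraries over 20 CPM of ALB. It was 214 by the exact test with 1 common dispersion and 14 by DESeq2. Leaving out 1 cow gave 0 to 2 genes, with 1 (COL11A2) without Fert- cow 164 and 2 (XDH and CARNS1) without Fert- cow 426, and 719 to 1081 genes at an unadjusted p under 0.05.

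Of 2285 alternative log2 fold changes of the 88 tested named genes with values in the text, 2208 kept direction and side of the threshold, 68 passed it and 9 in 6 genes turned direction. No gene passed the threshold in the main fit, so keeping its side meant only that a gene was still not called. Changes of size with the same sign, such as those given above, were not counted. Without the libraries over 20 CPM of ALB, FGG was at 0.5537, JSP.1 at -0.1651 and COX1 at -0.01153. MYH4 was at 0.3259 with a term for cows 164 and 419, 0.33 without them and 0.3198 by DESeq2. Leaving out 1 cow moved MYH1 from -0.01657 to 0.1484, ALB from -1.654 to 0.2792 and COX1 from -0.011 to 0.08151. The exact test called 57 and DESeq2 8 of these genes. Of 60 summed list levels 1 moved by over 1 SD without TMM factors.

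With the cow as a replicate block, which pairs the time-points, the interaction counts were 0 for ML against LP and 0 for ML against EL, as without the block, with RLE factors and without a filter. The genotypes hold different cows, so the comparison at ML has no pairs. A spread between cows of 19.6% (common dispersion 0.0384) and 8 cows per genotype limited the differences that were detectable. No Fert+ cow shares the counts of cows 164 and 419, so no value within these libraries can be given.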
